A study of Mus musculus with 8 samples.

Results

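The brush-border peptidases are membrane-bound enzymes on the lumenal face of small intestinal enterocytes, and 9 of their genes are described here: Anpep, Dpp4, Enpep, Ace, Mme, Mep1a, Mep1b, Xpnpep2 and Naaladl1. They were a list of named genes matched by symbol, all 9 were present among the 43629 genes of the count table, and all 9 passed the filter on low counts that left 17029 genes tested. RNA was sequenced from 4 tumor libraries and 4 small intestine libraries. All 8 came from mice labelled as carrying an APC mutation on a C57B6/129 background, with no treatment, so the small intestine libraries are from mutant animals too. The labels do not name the Apc allele, the age or sex of the mice, the segment of intestine, or whether each library of a tissue stands for its own animal, and the p-values below therefore rest on the spread among these samples, which may be technical.

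Gastric and pancreatic enzymes turn dietary protein into a mixture of oligopeptides, and the peptidases of the microvillus membrane trim these to free amino acids, dipeptides and tripeptides, which carriers in the same membrane take up. Aminopeptidases remove residues from the amino end, dipeptidyl peptidases remove residues in pairs, and endopeptidases cut inside the chain. The genes are marks of mature villus enterocytes, but several are also known from other cells: Ace from endothelium, Anpep from myeloid cells and pericytes, Enpep from pericytes, Dpp4 from T cells and fibroblasts, and Mme from stromal and lymphoid cells.

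The windows just before the start sites of 3 of the genes are shown because Enpep and Mep1a stood near the middle of the group in their change between tissues, whereas Ace changed least. Each is the 250 bases upstream of a RefSeq transcript start (GRCm38.p6), written in the direction of transcription. Capitals mark CAAAG on either strand, the core of an HNF4 half-site. HNF4 is a nuclear receptor of enterocytes.
Enpep, chr3:129332750-129332999, minus strand: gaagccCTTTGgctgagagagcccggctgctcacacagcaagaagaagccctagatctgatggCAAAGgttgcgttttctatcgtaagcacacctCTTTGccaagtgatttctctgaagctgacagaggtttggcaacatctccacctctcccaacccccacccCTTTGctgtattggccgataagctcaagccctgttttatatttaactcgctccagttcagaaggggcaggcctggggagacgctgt
Mep1a, chr17:43502774-43503023, minus strand: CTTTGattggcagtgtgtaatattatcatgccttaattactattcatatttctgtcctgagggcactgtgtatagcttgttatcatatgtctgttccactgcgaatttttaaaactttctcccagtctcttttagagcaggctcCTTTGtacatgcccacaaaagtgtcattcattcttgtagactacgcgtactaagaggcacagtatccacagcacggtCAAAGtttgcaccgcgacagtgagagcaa
Ace, chr11:105967698-105967947, plus strand: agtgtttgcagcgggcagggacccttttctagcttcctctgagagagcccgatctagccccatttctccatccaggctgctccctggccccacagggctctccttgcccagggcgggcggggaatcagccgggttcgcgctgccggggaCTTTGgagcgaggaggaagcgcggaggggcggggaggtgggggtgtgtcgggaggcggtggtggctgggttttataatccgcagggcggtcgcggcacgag
The Enpep window held 4 matches, the Mep1a window 3 and this Ace window 1, but the number did not follow the size of the fall: a second Ace window held 3, the Xpnpep2 window 1, the Dpp4 window 2, the Anpep window 0, and the 3 windows of Mme held 3, 1 and 0. Windows were matched for 7 of the 9 genes, and CAAAG was found in at least 1 window of 6 of these 7 (all except Anpep, whose RefSeq start lies inside the GENCODE gene), against 52.2% of 27025 genes with a window. The 3 Mme windows and the second Ace window also lie well inside their GENCODE genes. AGATAA, a sequence bound by the zinc-finger factor Gata4, was found in Dpp4 alone of the 7, at position -32 from its start, against 11.4% of genes. TTTATG, a CDX motif, was found in 0 of the 7 genes, against 12.4% of genes. Both strands were searched, and none of the 3 motifs named here contains another. Only these exact letters were searched, so other sequences that the same factors may bind were not counted. The G+C content was 52.4% in the Enpep window, 41.6% in that of Mep1a and 67.2% in that of Ace, beside a median of 52.4% over 32851 windows.

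In tumor all 9 peptidase genes fell, and their log2 fold changes ran from -7.44 for Xpnpep2 to -4.59 for Ace with a median of -6.75, against a median of 0.07 over all genes tested. This is a fall of between 24.1-fold and 173-fold. Each passed the quasi-likelihood test of edgeR after Benjamini-Hochberg adjustment over all genes (adjusted p of 1.78e-08 to 4.01e-07), and in each the 4 tumor libraries lay below the 4 small intestine libraries in CPM, which are counts scaled to library size with the trimmed mean of M values (TMM). Among all genes tested 35.4% were called lower in tumor and 33% had tumor libraries that all lay below. A called fall at least as large as that of Ace was found in 2.72%. Together the 9 genes took 0.0557 ± 0.0103% of gene-assigned counts in tumor and 3.13 ± 0.403% in small intestine (SD, n = 4 each). In bulk tissue, fewer cells of a type and less RNA per cell cannot be told apart.

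**Figure D1:**
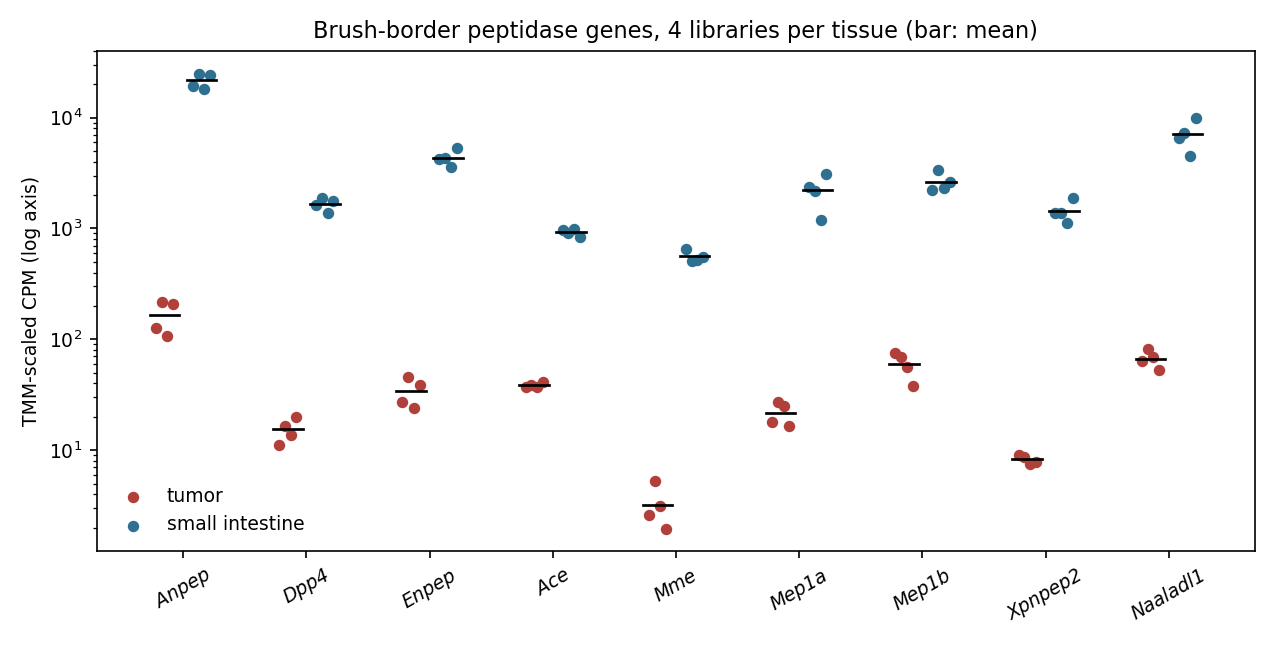
Level of each peptidase gene in every library, in TMM-scaled CPM on a log axis, with tumor left of small intestine; points are libraries and bars are means of 4. For every gene the tumor points lie below the small intestine points, and the gap is narrowest for Ace.

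The tumor libraries held 53856561 to 67371180 counts and the small intestine libraries 62347648 to 84433335, so 3 counts corresponded to 0.0331 to 0.0419 CPM in tumor and to 0.0517 to 0.0630 CPM in small intestine. The lowest peptidase value, Mme in tumor replicate 4, rested on 174 counts, so counting error was small beside the spread between libraries. The falls were also called without TMM. Scaling to library totals alone raised the log2 median over all genes by 0.863, and the 9 falls then ran from -6.58 (Mme) to -3.73 (Ace). In the deposited FPKM table (fragment counts scaled to library size and gene length), tested with limma on log2(FPKM + 1), all 9 fell too, by -6.23 (Anpep) to -3.71 (Ace), with adjusted p of 9.55e-09 to 1.93e-07 against a background of 18.1% of genes called lower.

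The tissue labels were set beside marker genes. Among all genes tested 38.9% were called higher in tumor and 35.4% lower. With library totals 10564 of all 17029 genes rose and 2996 fell. Enterocyte markers fell in 12 of 12 cases (median -6.40) and summed to 904 to 1430 CPM in tumor, against 45349 to 60509 CPM in small intestine, with none at 0 in either tissue. Of 6 markers of epithelium at large 5 fell and Krt18 rose, with sums of 5862 to 8079 CPM in tumor, against 13555 to 18209 CPM in small intestine; with library totals 3 fell and 2 rose. Sums of pericyte and smooth muscle markers were 234 to 261 CPM in tumor, against 35.1 to 77.9 CPM in small intestine (7 of 8 rose), and those of macrophage and dendritic markers 143 to 228 CPM in tumor, against 62.3 to 90.7 CPM in small intestine (5 rose and 1 fell of 8; with library totals 7 rose and 0 fell). Neutrophil markers rose in 6 of 6 cases, to sums of 11.7 to 66.4 CPM in tumor, against 0.588 to 7.80 CPM in small intestine. Of these, S100a8 (edgeR adjusted p = 0.0410) and S100a9 (edgeR adjusted p = 0.0405) each lost the call in 5 of the 8 fits with a library left out, and without small intestine replicate 2, the highest of its tissue for both, their log2 fold changes were 8.41 and 8.93 in place of 3.55 and 3.73. B and plasma cell markers fell in 4 of 6 cases, with sums of 182 to 860 CPM in tumor, against 176 to 1009 CPM in small intestine. How far any of these cells carry the peptidase RNA left in tumor was not tested.

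Of the aminopeptidases, Anpep encodes aminopeptidase N, which removes neutral residues and is among the most abundant proteins of the microvillus membrane. It had 128, 218, 106 and 207 CPM in tumor replicates 1 to 4, against 19234, 24951, 18087 and 24401 CPM in small intestine replicates 1 to 4. Its log2 fold change was -7.04 ± 0.38 (SE; edgeR adjusted p = 3.44e-07). Tumor replicates 2 and 4 stood higher than replicates 1 and 3, but all were far below small intestine. Per length, Anpep ranked 1779th of 43437 genes by mean FPKM in tumor and 18th in small intestine.

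Enpep encodes aminopeptidase A, which removes acidic residues and also trims angiotensin peptides. It had 27.3, 45.8, 24.0 and 38.9 CPM in tumor, against 4254, 4290, 3559 and 5319 CPM in small intestine. The log2 fold change was -7.00 ± 0.30 (SE), with an edgeR adjusted p of 1.15e-07. As for Anpep, tumor replicates 2 and 4 were the higher pair. Xpnpep2 encodes a membrane-anchored aminopeptidase P, which releases an amino-terminal residue that precedes proline. It had 9.08, 8.65, 7.51 and 7.76 CPM in tumor, against 1369, 1374, 1115 and 1869 CPM in small intestine. At -7.44 ± 0.22 (SE; edgeR adjusted p = 2.41e-08) its log2 fold change lay next to that of Mme, and its tumor libraries lay close together.

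Naaladl1 encodes a relative of the glutamate carboxypeptidases that is known from the ileum, and its protein has been described as an aminopeptidase. It had 64.1, 82.2, 68.9 and 52.4 CPM in tumor, against 6560, 7315, 4540 and 9803 CPM in small intestine. Its log2 fold change was -6.72 ± 0.32 (SE; edgeR adjusted p = 1.99e-07). By mean FPKM it ranked 3338th in tumor and 45th in small intestine, where it was the most abundant of the 9 after Anpep.

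Dpp4 encodes a dipeptidyl peptidase that removes pairs of residues ending in proline or alanine and that inactivates incretin hormones. It had 11.1, 16.5, 13.8 and 20.1 CPM in tumor, against 1633, 1863, 1374 and 1763 CPM in small intestine, and its log2 fold change was -6.75 ± 0.24 (SE; edgeR adjusted p = 5.29e-08). Tumor replicate 4 was the highest tumor library. T cell markers, as a known other source of Dpp4, summed to 22.0 to 38.5 CPM over 8 genes in tumor, replicate 4 again the highest. In small intestine they summed to 58.7 to 236 CPM. Of the 8, 7 fell (3 with library totals), beside 35.4% of all genes lower. Fibroblast markers, another known source, summed to 1444 to 2396 CPM in tumor, replicate 4 being the lowest, against 25.8 to 70.1 CPM in small intestine. The part of either list in the result was not tested.

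Ace encodes the angiotensin-converting enzyme, which removes dipeptides from the carboxyl end. It had 37.2, 38.9, 36.8 and 41.0 CPM in tumor, against 971, 906, 994 and 831 CPM in small intestine. In both tissues its libraries lay closer together than those of the other 8 genes, with a coefficient of variation of 4.96% in tumor and 7.94% in small intestine. Its log2 fold change of -4.59 ± 0.12 (SE; edgeR adjusted p = 1.78e-08) was the smallest in size of the 9 and ranked 464th of the 17029 genes tested by size of fall. Endothelial markers rose in 8 of 8 cases (median 3.74, against 38.9% of all genes called higher) and summed to 249 to 309 CPM in tumor and 13.1 to 39.2 CPM in small intestine, with none of the 8 at 0 in either tissue. Their part in the level of Ace in tumor was not tested. The RefSeq table gives Ace a second start inside the gene, and counts per gene do not separate transcripts from the 2 starts.

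Of the endopeptidases, Mme encodes neprilysin, a zinc enzyme that cuts peptide hormones on the amino side of hydrophobic residues. By FPKM it was the least abundant of the 9 in both tissues. It had 2.58, 5.24, 3.16 and 1.96 CPM in tumor, against 657, 506, 516 and 554 CPM in small intestine. The log2 fold change was -7.43 ± 0.34 (SE; edgeR adjusted p = 1.56e-07). Tumor replicate 2 was the highest and replicate 4 the lowest. Fibroblast markers, as a known other source, rose in 7 of 8 cases, beside 38.9% of all genes higher. They summed to 1444 to 2396 CPM in tumor against 25.8 to 70.1 CPM in small intestine. Their part in the level of Mme was not tested.

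Mep1a and Mep1b encode the alpha and beta subunits of meprin, a zinc endopeptidase that digests large peptides and also processes mucus and cytokines. Mep1a had 18.0, 27.2, 25.3 and 16.5 CPM in tumor, against 2382, 2182, 1187 and 3114 CPM in small intestine, and its log2 fold change was -6.67 ± 0.37 (SE; edgeR adjusted p = 4.01e-07). Small intestine replicate 3 was lower than the other 3, and without it the log2 fold change was -6.88. Mep1b had 75.7, 69.6, 56.0 and 37.8 CPM in tumor, against 2230, 3355, 2339 and 2625 CPM in small intestine. At -5.46 ± 0.28 (SE; edgeR adjusted p = 2.75e-07) its fall was the smallest after that of Ace, and tumor replicate 4 was its lowest library.

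**Figure D2:**
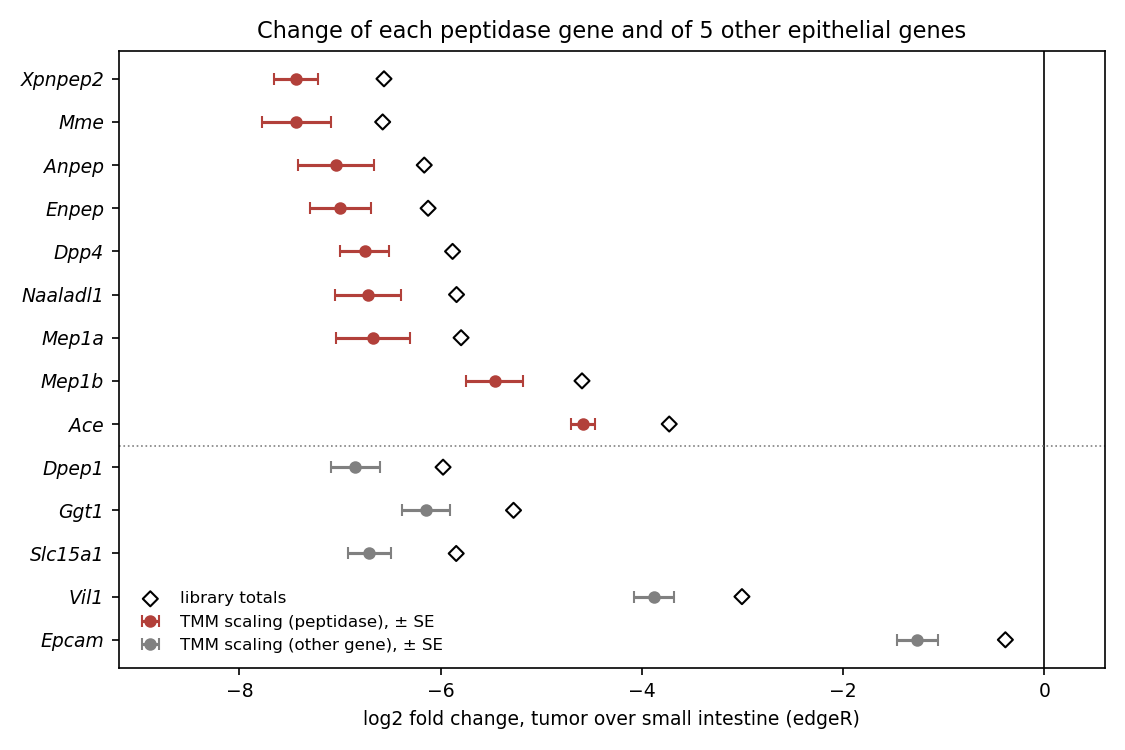
Change of each peptidase gene (red) and of 5 other epithelial genes (grey) as log2 fold change of tumor over small intestine from edgeR, with SE bars for TMM scaling and open diamonds for scaling to library totals. All 9 peptidase genes lie left of the villus gene Vil1 under both scalings, Ace nearest to it, and Epcam lies closest to 0.

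Whether the genes fell by equal amounts was asked with ratios inside each library, which do not depend on the scaling between tissues. The log2 ratio of Ace to each of the other 8 genes was higher in tumor, by 0.91 (to Mep1b) to 2.93 (to Mme), and the tissues did not overlap in any of the 8. The ratio of Mep1b to each of the other 7 was also higher in tumor, by 1.13 (to Mep1a) to 2.02 (to Mme), without overlap. In 17 of the 36 pairs the tissues did not overlap and the exact 2-sided permutation p was 0.0286, the smallest that 4 against 4 libraries can give. After Benjamini-Hochberg adjustment over 36 pairs this became 0.0605, so no pair passed at 0.05, and these differences are reported as such. How often pairs of any 2 genes fail to overlap was not computed, so the count of 17 is not a trait of the peptidases. The remaining 2 pairs without overlap were Mep1a to Xpnpep2, higher in tumor by 0.80, and Xpnpep2 to Naaladl1, lower in tumor by 0.73.

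For the other pairs the change was not shown to differ. The ratio of Anpep to Enpep changed by -0.06 (exact permutation p = 0.629, adjusted 0.696 over 36 pairs), with differences between single libraries of the tissues from -0.39 to 0.23. The ratio of Mep1a to Naaladl1 changed by 0.06, with such differences from -0.37 to 0.49. The range was wide for several pairs, from -1.86 to 0.67 for Anpep to Mep1a and from -0.23 to 2.04 for Dpp4 to Mme.

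**Figure D3:**
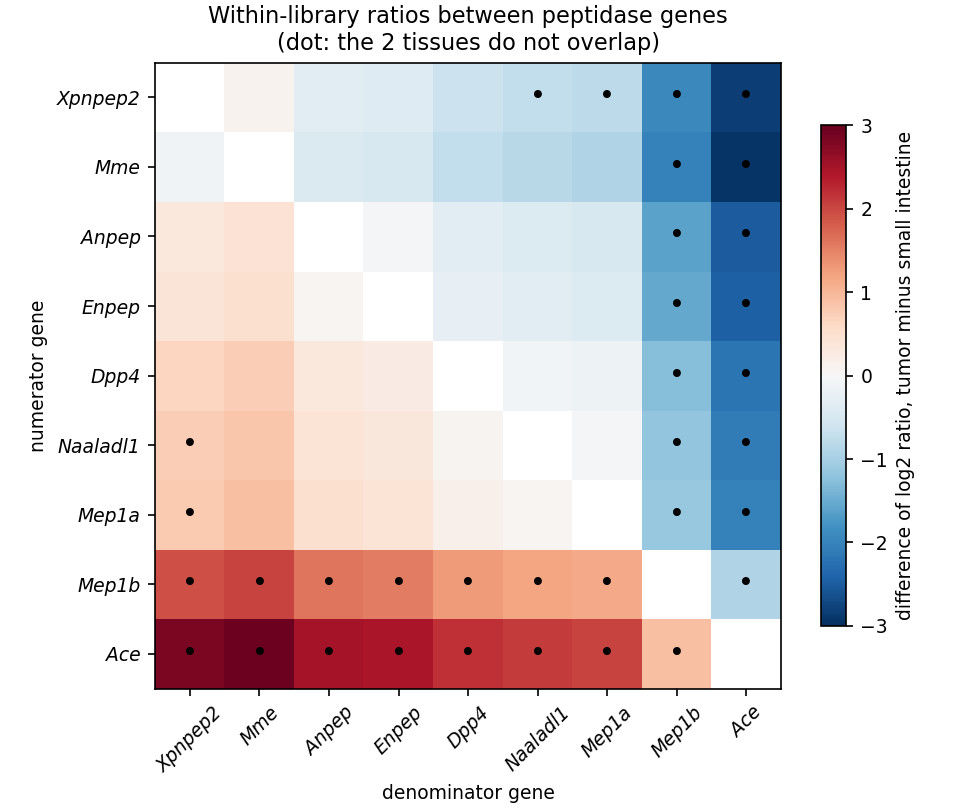
Difference of the log2 ratio of 2 peptidase genes within a library, tumor minus small intestine, for the row gene over the column gene; genes run in order of their fold change, and a dot marks pairs whose tissues do not overlap. The rows of Ace and Mep1b are red against all genes that fell further, from 0.91 to 2.93, and the other pairs are near 0 or reach 0.90 at most.

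The order of the 9 genes by level differed between the tissues in FPKM, which allows genes to be compared per length. In tumor the order of mean FPKM was Anpep (50.3 ± 17.6), Mep1b (30.9 ± 8.54), Naaladl1 (27.7 ± 5.10), Ace (9.96 ± 0.560), Enpep (9.61 ± 2.77), Mep1a (8.23 ± 1.92), Dpp4 (4.02 ± 1.21), Xpnpep2 (2.99 ± 0.571) and Mme (0.954 ± 0.301; SD, n = 4). Neighbours overlapped except at Naaladl1 over Ace, Mep1a over Dpp4 and Xpnpep2 over Mme. In small intestine it was Anpep (3700 ± 515), Naaladl1 (1536 ± 401), Mep1b (743 ± 142), Enpep (675 ± 87.6), Mep1a (460 ± 149), Xpnpep2 (243 ± 42.5), Dpp4 (228 ± 25.4), Ace (143 ± 17.0) and Mme (65.6 ± 10.7). Here the neighbours from Mep1b to Dpp4 overlapped and the others did not.

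As a share of the summed FPKM of the 9 genes, Mep1b held 21.6 ± 6.37% in tumor and 9.58 ± 1.37% in small intestine, and Ace 7.01 ± 1.03% in tumor and 1.88 ± 0.478% in small intestine. Xpnpep2 held 2.08 ± 0.252% in tumor and 3.12 ± 0.305% in small intestine. Each of these 3 had an exact permutation p of 0.0286 and an adjusted p of 0.0857 over 9 genes (n = 4 each). Anpep held 34.2 ± 8.43% in tumor and 47.6 ± 2.87% in small intestine, with an exact permutation p of 0.0571 (adjusted 0.103).

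**Figure D4:**
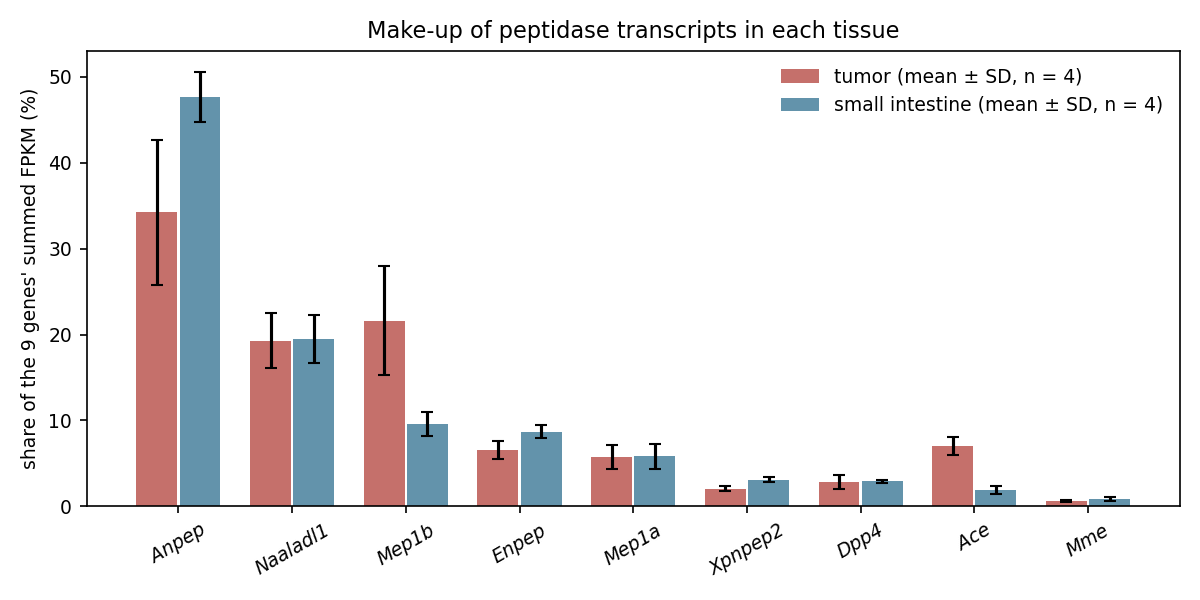
Share of the 9 peptidase genes' summed FPKM held by each gene, in percent, as means of 4 libraries per tissue with SD bars, tumor left of small intestine. Mep1b and Ace take larger shares in tumor, at 21.6% and 7.01%, than in small intestine, at 9.58% and 1.88%.

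The peptidases were also set against Epcam and Vil1 within each library, and with 1 exception they fell further than both. Epcam, an adhesion protein of epithelial cells at large, averaged 1524 ± 209 CPM in the tumor libraries, against 3661 ± 837 CPM in small intestine (SD, n = 4 each), and its log2 fold change of -1.26 (edgeR adjusted p = 0.000372) became -0.39 with library totals (edgeR adjusted p = 0.0524). Vil1, which encodes the microvillus actin-bundling protein villin, averaged 375 ± 45.4 CPM in the tumor libraries, against 5507 ± 906 CPM in small intestine, and its log2 fold change was -3.88. The log2 ratio to Epcam was lower in tumor for all 9 genes, with differences of -6.27 (Mme) to -3.34 (Ace). The log2 ratio to Vil1 was lower in tumor for 8 of them, with differences of -3.65 (Mme) to -1.62 (Mep1b). These 17 comparisons had an exact 2-sided permutation p of 0.0286 and an adjusted p of 0.0303 over 18, with no overlap of tissues. The share of all genes with such ratios was not computed. The ratio of Ace to Vil1 was the exception, at -3.28 ± 0.25 in tumor and -2.56 ± 0.35 in small intestine (SD, n = 4 each), a difference of -0.71 with an exact permutation p of 0.0571, equal after adjustment. With FPKM in place of counts that difference was -0.79 and passed.

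Among libraries of 1 tissue the 9 genes did not move as a block. In tumor, replicates 2 and 4 were the highest pair for Anpep, Dpp4, Enpep and Ace, whereas replicate 4 was the lowest for Mme, Mep1a, Mep1b and Naaladl1. Enterocyte markers summed to 904 CPM in tumor replicate 4 against 1067 to 1430 CPM in replicates 1 to 3, and the 6 pan-epithelial markers to 5862 against 7677 to 8079 CPM. Their part in these differences was not tested.

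In small intestine, replicate 3 was the lowest of its tissue for 6 of the 9 genes, with a median of 0.784 times the mean of the other 3, and replicate 4 the highest for 4 genes. Ace went the other way, highest in replicate 3 and lowest in replicate 4. Peptidases are known to differ along the length of the gut, and the libraries differed in regional markers: 7 distal genes summed to 8347 CPM in replicate 3 and to 8971 to 13403 CPM in the other replicates, replicate 4 being the highest. Lct, the lactase gene, which is known for its higher level in the proximal gut, was at 332 CPM in replicate 3 and at 56.7 to 91.9 CPM in the others. In tumor the distal genes summed to 82.1 to 162 CPM, and all 7 fell, beside 35.4% of all genes lower and 38.9% higher. Of 6 proximal genes 2 rose and 3 fell, with sums of 155 to 226 CPM in tumor, against 178 to 558 CPM in small intestine. With library totals 3 of these rose and 2 fell, where 10564 of all 17029 genes rose and 2996 fell. The part of gut position in the comparison of tissues was not tested, since the labels give no segment.

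**Figure D5:**
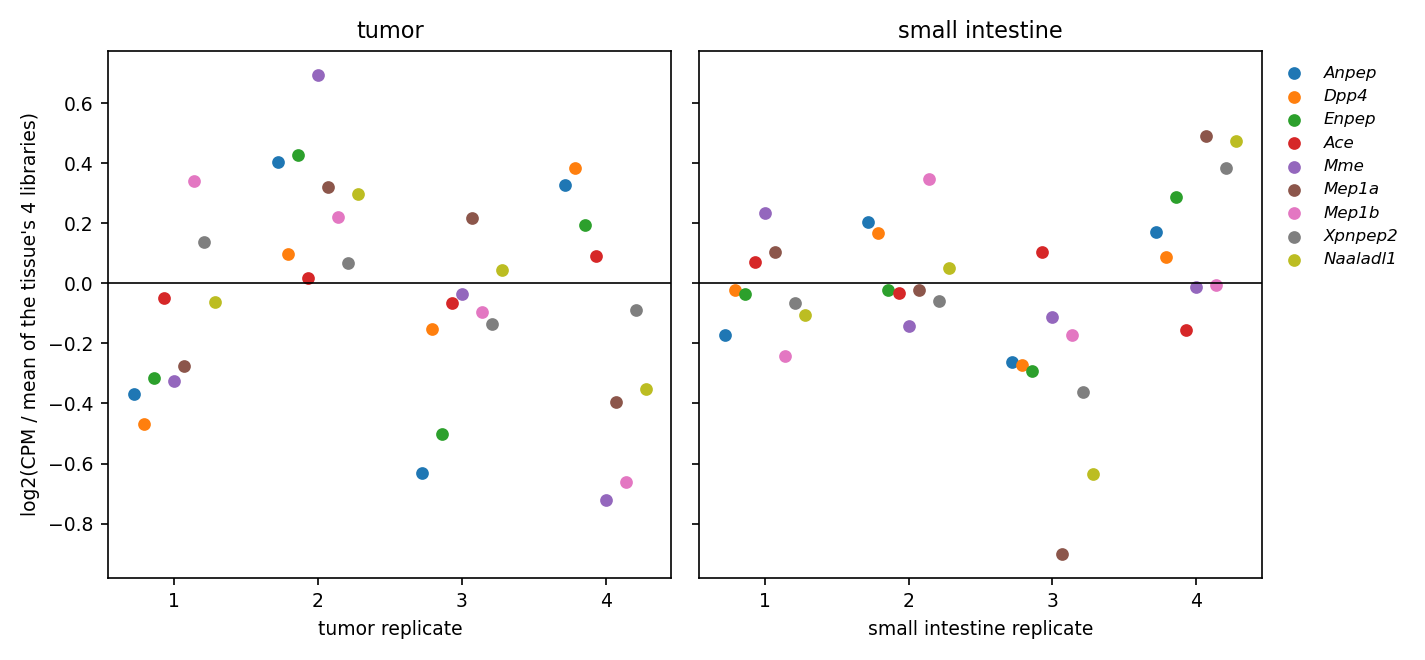
CPM of each peptidase gene in each library relative to the mean of its tissue, on a log2 scale, for the 4 tumor libraries (left) and the 4 small intestine libraries (right). In tumor replicate 4 the genes split, Anpep, Dpp4, Enpep and Ace being above 0 and the other 5 below it; in small intestine replicate 3 only Ace is above 0.

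Other peptidases of the cell surface did not all fall. Of 12 such genes 9 passed the filter, and 5 fell, 1 rose and 3 did not pass the test, beside 35.4% of all genes lower and 38.9% higher. With library totals 5 fell and 4 rose, where 2996 of all 17029 genes fell and 10564 rose. Dpep1, a dipeptidase of the microvillus membrane, averaged 14.3 ± 2.83 CPM in the tumor libraries, against 1645 ± 311 CPM in small intestine (SD, n = 4 each). Ggt1, a gamma-glutamyltransferase that breaks down glutathione outside the cell, averaged 16.3 ± 3.30 CPM in the tumor libraries, against 1156 ± 230 CPM in small intestine. Their log2 fold changes were -6.85 and -6.15. Cpm, a membrane carboxypeptidase, averaged 76.4 CPM over tumor libraries and 53.8 CPM over those of small intestine (log2 fold change 0.51; edgeR adjusted p = 0.158); it was called higher with library totals (1.39) and in FPKM (1.16). Naalad2, a relative of Naaladl1, rose to 1.66 CPM in tumor, against 0.0619 CPM in small intestine (4.68, and 5.67 without small intestine replicate 1). In small intestine replicates 1 to 4 Naalad2 held 9, 3, 1 and 1 counts, near the floor of 3 counts, so the size of its change is uncertain. Tmprss15, the enteropeptidase gene of the duodenum, held 0 counts in tumor and 1 count over the 4 small intestine libraries, so no level was detectable at this depth.

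Peptidases inside the cell finish the digestion of absorbed dipeptides or take part in general protein turnover. Of 18 measured, 8 fell, 4 rose and 6 did not pass, beside 35.4% of all genes lower and 38.9% higher. Their median log2 fold change was -0.28, and with library totals 4 fell and 11 rose. The shares with library totals were near those over all genes. Those with the largest falls were Cndp2, a dipeptidase of the cytosol, at -4.66, Pepd, which splits dipeptides that end in proline, at -4.37, and Lap3, a leucine aminopeptidase, at -3.60. Thop1, an oligopeptidase of the cytosol, rose by 1.56. Carriers for peptides and amino acids fell in 11 of 11 cases, also with library totals, with a median of -5.43. Among them Slc36a1 did not pass in FPKM (-0.69, limma adjusted p = 0.118). From counts its log2 fold change was -1.92, and -1.27 without small intestine replicate 3. Slc15a1, the peptide transporter of the brush border, averaged 12.6 ± 2.51 CPM in the tumor libraries, against 1317 ± 161 CPM in small intestine, and its log2 fold change was -6.71. The amino acid carriers Slc6a19 and Slc6a20a stood at -7.86 and -6.78.

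Of 10 transcription factors of the intestinal epithelium 8 fell and 2 did not pass, beside 35.4% of all genes lower. With library totals 6 fell and 3 rose, where 2996 of all 17029 genes fell and 10564 rose. Among the 8, Gata4 lost its call in 3 of the 8 fits with a library left out. Gata6, also among them, was called higher in FPKM (0.45). Maf and Hnf4g showed log2 fold changes of -5.34 and -4.51. Hnf4a averaged 250 ± 25.9 CPM in the tumor libraries, against 1668 ± 355 CPM in small intestine, and its log2 fold change was -2.74. Cdx2, at -2.32, fell less, and its log2 fold change was -1.44 with library totals.

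The 5 protein-coding genes whose profile over the 8 libraries was most like the median of the 9 peptidases, among 13001 with at least 1 CPM, were Dpep1, Amn, Cyp4f14, Ccl25 and Prlr. Likeness was the root mean square difference of centred log2 CPM, which was 0.0805 for Dpep1 and 0.192 to 0.253 for the other 4. Amn, a membrane anchor for vitamin uptake, averaged 3.50 ± 0.263 CPM in the tumor libraries, against 438 ± 90.8 CPM in small intestine. Ccl25, a chemokine of small intestinal epithelium, averaged 7.93 ± 1.42 CPM in the tumor libraries, against 803 ± 86.3 CPM in small intestine (SD, n = 4 each). The same measure was 0.193 to 0.348 for 6 of the peptidases, 0.491 for Mme, 0.747 for Mep1b and 1.14 for Ace.

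In genome build GRCm38 (GENCODE M21) Anpep (ENSMUSG00000039062) lies on chromosome 7 from 79821803 to 79861059, Dpp4 on chromosome 2 from 62330073 to 62412231, Enpep on chromosome 3 from 129269175 to 129332720 and Mme on chromosome 3 from 63241537 to 63386030. Ace lies on chromosome 11 from 105967945 to 105989964, Mep1a on chromosome 17 from 43474324 to 43502812, Mep1b on chromosome 18 from 21061923 to 21100199, Xpnpep2 on chromosome X from 48108725 to 48136981 and Naaladl1 on chromosome 19 from 6105782 to 6115792. All are protein-coding. Antisense genes share exon bases with Dpp4 and Ace, but these held 326 and 15 counts over the 8 libraries, beside 372250 for Dpp4 and 215524 for Ace.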

How the data were processed

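Polyadenylated RNA from 4 tumor and 4 small intestine libraries was sequenced; groups follow the tissue labels and replicate numbers the titles. The authors deposited 2 tables. In the first the authors give unscaled read counts of 43629 genes, which were used as they stand. The second holds FPKM for 43437 genes, in which the authors had already divided by library size and transcript length. The submitters' processing notes name FastQC, STAR, Cufflinks 2.2.1, HTSeq 0.6.0 and GRCm38. Which annotation and strand setting were used, and how shared reads were treated, is not given there. Symbols were found by identifier for 42462 genes.

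The main test was edgeR 4.0.16 (R 4.3.3) on the counts, with TMM factors, filterByExpr, glmQLFit and glmQLFTest and tissue as the single term. Adjustment (Benjamini-Hochberg) ran over all 17029 genes at a threshold of 0.05. For FPKM, limma 3.58.1 with a trend was run on log2(FPKM + 1), keeping genes whose mean was 1 or more; differences of weakly expressed genes are understated there. Ratios within a library used counts + 0.5 and exact permutation tests. Each SE is the log2 fold change divided by the root of its F value. Counts were simulated over 17029 genes, 200 of them changed, with the same dispersion of 0.02 for every gene. In these, edgeR found 97% of genes with a simulated 2-fold change and 100% with a 4-fold one, and 5.74% of its calls were false. For limma the shares found were 83% and 87%, and 3.41% of calls were false. The spread of real genes was not simulated, and many more genes were called, so these shares do not give the power in these data.

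The 9 genes and the 16 lists (141 genes) were chosen with earlier results of these data known. Named were the 9 genes, further genes in any case (Cpm, Ggt1, Dpep1, Tmprss15, Slc15a1, Hnf4a, Cdx2, Vil1 and Epcam; others of that rule are not reported here), up to 3 called genes with the largest change from each list and the largest in the minority direction, and the 5 most alike profiles; marker lists are mostly given as counts and sums. Sequences are RefSeq's (GRCm38.p6), and protein sequences were not used here. A chi-square check for a library deposited in duplicate gave at least 38.9 per degree of freedom for every pair. The floor of 3 counts covers counting error only, whereas the SE and SD values and the ranges of ratios reflect the spread between libraries.

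Settings also run were size factors of DESeq2, plain library totals, TMM computed without the 50 most abundant genes, no filter on low counts, a filter at a mean CPM of 1, DESeq2 1.42.0, edgeR's glmTreat at 2-fold, the replicate block, leaving out each library, and other offsets.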

Additional observations from a re-analysis of the deposited data

Results flagged for a closer look

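In 130 groups of 4 values (CPM of the 9 genes and their sums per tissue, and the ratios within a library), 3 had a library that stood far from the other 3 by Dixon's criterion, and chance flags about 1 in 20 groups. The log2 ratio of Dpp4 to Mep1a was 0.28 in tumor replicate 4, against -0.87 to -0.69 in the other tumor libraries. The log2 ratio of Ace to Epcam was -4.89 in tumor replicate 4, against -5.47 to -5.41 in the others. The log2 ratio of Mep1b to Epcam was -0.79 in small intestine replicate 4, against -0.38 to -0.33 in the other small intestine libraries.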

How the results depend on the processing

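All 9 peptidase genes were called lower in tumor under each of the 16 alternatives for counts and the 11 for FPKM, with adjusted p of at most 4.63e-05. With each library left out in turn, log2 fold changes from counts ran from -4.64 to -4.53 for Ace and from -7.73 to -7.21 for Mme, the gene with the widest range. Over all genes, 6619 were higher and 6030 lower in tumor, against 10564 higher and 2996 lower with library totals and 3753 and 2979 with a minimum fold of 2. With library totals 4 other surface peptidases, 11 intracellular peptidases and 3 transcription factors rose, and 4 intracellular peptidases fell; with TMM without the 50 most abundant genes 2 surface peptidases and 1 transcription factor rose. The shift of all genes by 0.863 goes with library totals by construction; for the last setting the cause was not tested.

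Of the 54 ratios, some changed sign. With FPKM + 0.01 the change of Anpep to Mme was -0.14, of Enpep to Mme -0.046 and of Mme to Xpnpep2 0.21, against 0.43, 0.48 and -0.10 with counts. With libraries left out, Mme to Xpnpep2 ran from -0.34 to 0.079, Dpp4 to Naaladl1 from -0.34 to 0.038, Dpp4 to Mep1a from -0.42 to 0.030, Anpep to Enpep from -0.11 to 0.017 and Mep1a to Naaladl1 from -0.015 to 0.14. No pair of peptidases passed adjustment with counts + 5 (17 of 36 at an unadjusted p under 0.05) or FPKM + 0.01 (16 of 36). With signs permuted within replicate numbers the smallest p is 0.125, so no test at 0.05 was possible. With a library left out, the ratios were compared by the size and sign of the change only.

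Same-numbered libraries correlated at -0.14 to 0.014 in their deviations from the tissue means over 17029 genes, and the others at -0.071 to 0.12. No pairing by replicate number was seen, but these values cannot show whether same-numbered libraries came from the same animal. With the replicate block in edgeR all 9 peptidases stayed lower, and 6301 genes were higher and 5592 lower.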
